A study of Rattus norvegicus with 458 samples.

Results

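The microRNAs (miRNAs) miR-192, miR-194 and miR-215 were followed across 23 rat tissues by small RNA sequencing. Members were the names of the miRNA count table that hold miR-192, miR-194 or miR-215, with any or no arm suffix, and the isomiR sequences (length and end variants of a miRNA) counted under those names. Names of precursors (-pre) were not members. By this rule 10 of 7534 names and 3554 of 264294 isomiR sequences were members, and they held 7.03% of all counts. The 3 main arms took nearly all of these: miR-192-5p had 37667149 counts (51.0% of member counts), miR-215 had 33691890 (45.7%) and miR-194-5p had 2399357 (3.25%). Libraries of 22 tissues came from 10 untreated Sprague Dawley rats aged 12 to 13 weeks, 5 male (rats 2 to 6) and 5 female (rats 7 to 11). Each of 19 tissues was taken from all 10 rats, and the testis, the ovary and the uterus from 5 rats each. The dorsal root ganglion was represented by 10 technical libraries of 2 pools, 1 per sex, of RNA that was supplied separately from Sprague Dawley animals of the same age range and that no label ties to these rats. Total RNA came from whole dissected tissue, so fewer cells of a type and less RNA per cell cannot be told apart.

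A miRNA is cut from a hairpin precursor, loaded into an Argonaute protein and directed to messenger RNAs mainly by its seed, the bases near its 5′ end. miR-192 and miR-194 are transcribed together from one cluster, and miR-215 and a second copy of miR-194 from another. miR-192 and miR-215 share their seed and are treated as a family, while miR-194 has a different seed. The clusters are known for high expression in intestinal and liver epithelium, where hepatocyte nuclear factors drive them, for expression in kidney tubules, and as targets of p53.

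The sequences of the main arms and of the 3p arms listed under their own names are given here because the seeds group the members. In RefSeq (rat genome GRCr8, where all 5 matched) they read as follows, 5′ to 3′, with the seed (bases 2 to 8) in capitals.
miR-192-5p: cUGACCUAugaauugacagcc
miR-215: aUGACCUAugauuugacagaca
miR-194-5p: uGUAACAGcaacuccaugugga
miR-192-3p: cUGCCAGUuccauaggucacag
miR-194-3p: cCAGUGGGgcugcuguuaucu
Both miR-192-5p and miR-215 carry the seed UGACCUA. They were identical at 18 of 21 compared positions and differed by C1A, A12U and C20A, with miR-192-5p first and positions counted from 1 at the 5′ end, so 1 difference lies before the seed and none within it. The seed of miR-194-5p, GUAACAG, was shared with no other member.

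The 4 hairpins lie in pairs on the plus strand of GRCr8. Mir194-2 (chr1:212994024-212994108) and Mir192 (chr1:212994209-212994318) are separated by 100 bases, and Mir194-1 (chr13:99382716-99382798) and Mir215 (chr13:99382990-99383086) by 191 bases. Both mir-194 hairpins give the same miR-194-5p, so its count cannot be divided between the loci. Their sequences, with miR-194-5p in capitals, are shown because the bases after it differ, so that a longer read can match one hairpin alone.
Mir194-1: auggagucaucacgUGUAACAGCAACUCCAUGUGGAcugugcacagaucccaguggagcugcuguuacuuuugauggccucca
Mir194-2: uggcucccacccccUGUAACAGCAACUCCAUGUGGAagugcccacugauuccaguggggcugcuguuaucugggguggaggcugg
Directly after miR-194-5p, mir-194-1 continues with CTGTGC and mir-194-2 with AGTGCC.

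Libraries held 376401 to 17725805 counts (median 4816409). Over 845 names that are no member, 10 libraries were closest to a tissue of another organ than their label: 4 labelled duodenum (rats 2, 4, 7 and 11), 3 hippocampus (rats 2, 6 and 7), and adrenal rat 8, ovary rat 11 and uterus rat 8. Among them, adrenal rat 8, hippocampus rat 6, ovary rat 11 and uterus rat 8 were closest to duodenum or jejunum, had 210076 to 270908 counts per 1000000 (CPM) of miR-215, and had summed epithelium markers (miR-200 family) of 9844 to 11805 CPM. The duodenum libraries of rats 2, 4 and 7 had summed neuron markers (miR-124-3p, miR-9a-5p and miR-128-3p) of 69514 to 73893 CPM, against 82.7 to 269 CPM in the 6 other duodenum libraries. The labels were kept. Levels, arm shares and 3p arms are given without these 10 unless stated, and counts of calls with all libraries and without them. Separately, in 14 libraries from 14 tissues 53.1% to 69.8% of miR-192-5p counts carried 1 extra base at the 5′ end (at most 0.912% in the other 201).

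miR-192-5p was highest in the small intestine, the liver and the kidney. Without the 10 libraries, the ileum had 189838, 224353 and 250297 CPM (lowest, median and highest of 10 rats) and the jejunum 158339, 175320 and 212100 CPM. The liver had 121200, 147469 and 168642 CPM, and the 6 remaining duodenum libraries 123981, 132117 and 145333 CPM. These 4 tissues lay above every other library of the remaining tissues. With all 10 libraries labelled duodenum the values were 278, 125171 and 145333 CPM. The kidney cortex followed with 50793, 65758 and 98824 CPM and the whole kidney with 35110, 58967 and 81617 CPM. The kidney medulla spread widely, from 5087 through 19401 to 48990 CPM. Glandular stomach libraries, from the acid-secreting part lined by columnar epithelium, had 8592, 10890 and 25177 CPM. Outside these tissues the highest level was in the cerebellum, at 2303, 3639 and 4072 CPM, and the lowest in whole blood, at 85.6, 175 and 223 CPM.

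miR-194-5p followed the same tissues at a lower level. The jejunum had 15434, 17227 and 20060 CPM, the duodenum (n = 6) 12898, 14348 and 17936 CPM, and the ileum 10104, 12496 and 15664 CPM. All 10 libraries labelled duodenum had 22.9, 13074 and 17936 CPM. Liver libraries had 5603, 6766 and 7236 CPM, and kidney cortex libraries 1638, 2439 and 3914 CPM. Levels in the whole kidney (1158, 2217 and 2603 CPM) overlapped those in the cortex, and medulla levels (266, 764 and 1941 CPM) reached the lower end of both. The cerebellum, with 379, 516 and 603 CPM, overlapped the glandular stomach, with 268, 446 and 1460 CPM, although edgeR's upper-quartile scaling put the stomach higher by 2.10 ± 0.24 (log2). Whole blood was again lowest, with 3.63, 7.37 and 13.3 CPM. Over the 23 tissue means, log2(CPM + 1) of miR-194-5p and miR-192-5p correlated with r = 0.98 in all libraries and r = 0.99 without the 10, a description over tissues that share rats and libraries.

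miR-215 was abundant in the small intestine. The jejunum had 331149, 389384 and 437638 CPM, the duodenum (n = 6) 215526, 256778 and 323686 CPM, and the ileum 172775, 209859 and 236176 CPM. Every library of another tissue lay below these once the 10 libraries were set aside. With them, the libraries labelled duodenum went down to 6.35 CPM (median 218927), and the highest library was at 210076 CPM in the adrenal, 232750 CPM in the hippocampus, 270908 CPM in the ovary and 267430 CPM in the uterus. Liver, which was not separated from the duodenum in miR-192-5p, had 4.85, 61.3 and 207.02 CPM of miR-215, and the kidney cortex had 9.97, 39.3 and 55.9 CPM. Glandular stomach libraries had 8.70, 33.4 and 12303 CPM, the highest from rat 3, with 80.6 CPM as the next. The 5 testis libraries had 30.5, 264, 306, 340 and 2038 CPM. Single high libraries also stood out in soleus muscle (1481 CPM, rat 9, median 28.9) and in the brainstem (1218 CPM, rat 8, median 51.1).

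**Figure D1:**
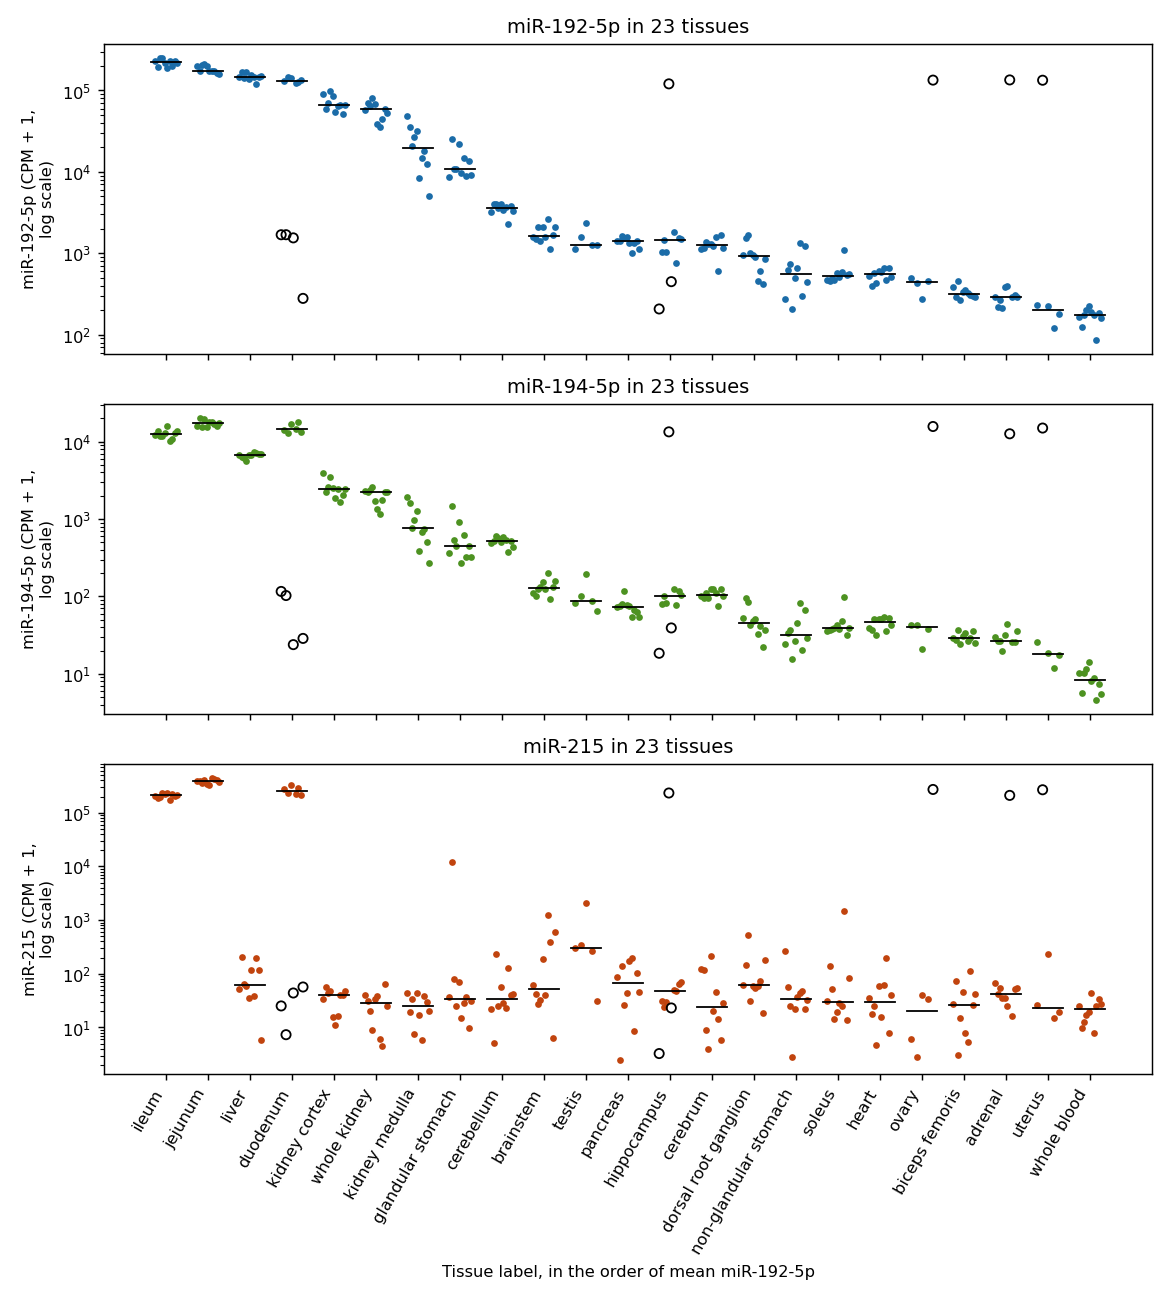
CPM plus 1 (log scale) of miR-192-5p, miR-194-5p and miR-215 in every library of 23 tissue labels, in the order of mean miR-192-5p. Filled points are libraries, lines are medians without the 10 libraries closest to another organ, and open circles are those 10 libraries. miR-192-5p and miR-194-5p fall from intestine through liver and kidney to blood, while miR-215 is at least 172775 CPM in the filled intestinal points and at most 12303 CPM in the other filled points.

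Low miR-215 levels moved with the flow cell. Most libraries were run on a first flow cell and again on others, and counts were summed. In 17 of 20 tissues outside the intestine the median miR-215 CPM was higher on the other flow cells, by a median ratio of 2.44 (0.379 to 7.83), whereas the same ratio for miR-192-5p had a median of 1.01 (0.830 to 1.29). In liver the medians were 12.0 CPM on the first flow cell and 68.8 CPM on the others, with 6 of 10 libraries higher on the others. Liver runs on the first flow cell held fewer counts, so the lower median rests on few reads. In the jejunum they were 370203 and 392582 CPM. What the flow cell contributed to low miR-215 values was not tested.

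The 3 arms together made up at least 36.1% of the counts of each intestinal library that was not set aside. Their summed share was 52.1%, 58.5% and 64.2% in the jejunum, 39.2%, 44.4% and 49.3% in the ileum, and 36.1%, 40.8% and 48.1% in the duodenum (n = 6). The liver had 12.9%, 15.5% and 17.5% and the kidney cortex 5.29%, 6.78% and 10.2%. In the uterus and whole blood the median share was 0.0246% and 0.0198%. Fold changes depended on the scaling: trimmed mean scaling moved the median of all names by -0.97 to 0.56 (log2), most in whole blood, and DESeq2 by -0.97 to 1.41, most in the testis, and by over 0.1 in 17 of 23 tissues for each.

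To ask where each arm was enriched, every tissue was set against the average of the 22 remaining ones in edgeR's quasi-likelihood test with upper-quartile scaling and Benjamini-Hochberg adjustment over 1641 names. With all libraries, miR-192-5p was called higher in 9 tissues and lower in 10, miR-194-5p higher in 11 and lower in 9, and miR-215 higher in 8 and lower in 10, where 34.7% of all tests over names and tissues were called (23.4% higher and 11.3% lower). Without the 10 libraries the counts were 8 and 15, 8 and 14, and 4 and 11, against 37.3% (24.4% higher and 12.9% lower). The 8 tissues in which both miR-192-5p and miR-194-5p were called higher were then the duodenum, the jejunum, the ileum, the liver, the whole kidney, the kidney cortex, the kidney medulla and the glandular stomach. miR-215 was called higher in the duodenum, the jejunum, the ileum and the glandular stomach.

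Enrichment of miR-192-5p, as log2 fold change ± SE without the 10 libraries, was 7.04 ± 0.14 in the ileum, 6.78 ± 0.14 in the jejunum, 5.98 ± 0.13 in the liver, 5.71 ± 0.14 in the duodenum, 4.70 ± 0.12 in the whole kidney and 4.62 ± 0.12 in the kidney cortex. With all libraries the ileum value was 5.97 ± 0.43 and the duodenum value 3.87 ± 0.39. The medulla and the glandular stomach stood at 3.21 ± 0.12 and 2.89 ± 0.12. For miR-194-5p the jejunum led with 7.31 ± 0.14, ahead of the ileum (6.75 ± 0.14), the duodenum (6.51 ± 0.14), the liver (5.42 ± 0.13) and the kidney cortex (3.67 ± 0.12). For miR-215 the difference was 12.18 ± 0.55 in the jejunum, 11.16 ± 0.53 in the ileum and 10.99 ± 0.54 in the duodenum. Adjusted p-values of the values given so far in this paragraph were 1.1e-17 or lower. In the liver miR-215 was -1.17 ± 0.60 (adjusted p = 0.11), and in the kidney cortex -2.60 ± 0.68 (adjusted p = 0.00082).

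Several calls for miR-215 rested on single libraries. With all libraries, the adrenal (4.93 ± 0.66), the hippocampus (5.57 ± 0.68), the ovary (6.01 ± 0.76) and the uterus (7.64 ± 0.80) were called higher. Without the 10 libraries the corresponding values were -2.74 ± 0.72, -4.14 ± 0.90, -3.88 ± 1.18 and -0.28 ± 0.85. In the glandular stomach the value was 3.77 ± 0.39 without the 10 libraries and -1.44 ± 0.55 (adjusted p = 0.041) with the library of rat 3 left out as well, a step chosen after the data were seen.

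Most neighbouring tissues in the order of mean level could not be separated with all libraries: 3 of 22 neighbouring pairs differed for miR-192-5p, 3 for miR-194-5p and 1 for miR-215, where 29.4%, 28.4% and 29.9% of all names did. Without the 10 libraries 12, 10 and 7 pairs differed, against 30.4%, 30.8% and 33.7%. Ileum and jejunum did not differ in miR-192-5p (0.25 ± 0.23, adjusted p = 0.65), nor did the liver and the duodenum (0.26 ± 0.26, adjusted p = 0.52). Kidney cortex and whole kidney were also inseparable (-0.07 ± 0.23, adjusted p = 1.0), as were medulla and glandular stomach (0.30 ± 0.23, adjusted p = 0.32). For miR-215 no pair within the intestine was called, and the step from ileum to glandular stomach was 7.07 ± 0.95 (adjusted p = 1.0e-10). The fit shares its spread among all tissues, yet every jejunum library lay above every remaining duodenum and ileum library in CPM. The stomach value includes rat 3, at 12303 CPM of miR-215 against 80.6 CPM in the next library.

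Of 24 tests of 8 chosen tissue pairs on the 3 arms, 6 were called with all libraries (16.5% of all names) and 14 without the 10 (14.9%). Between jejunum and liver, without the 10, miR-192-5p was higher in the jejunum by 0.76 ± 0.23 (adjusted p = 0.0037), miR-194-5p by 1.81 ± 0.24 (1.3e-11) and miR-215 by 12.77 ± 1.18 (6.1e-20). Liver exceeded the kidney cortex by 1.30 ± 0.23 in miR-192-5p (5.5e-07) and 1.67 ± 0.24 in miR-194-5p (3.3e-10). Cortex exceeded medulla by 1.35 ± 0.23 in miR-192-5p (3.7e-06) and 1.13 ± 0.23 in miR-194-5p (0.00012), while miR-215 differed by 0.18 ± 0.74 (1.0). The glandular exceeded the non-glandular stomach, which is lined by squamous epithelium, by 3.60 ± 0.25, 3.16 ± 0.25 and 3.99 ± 0.82 in the 3 arms. Without rat 3 as well, the value for miR-215 was -1.23 ± 0.66 (adjusted p = 0.26). None of the 3 arms was called between jejunum and ileum, at -0.25 ± 0.23, 0.54 ± 0.23 and 0.97 ± 0.73. The fit takes its spread from all tissues together, and in miR-215 CPM the jejunum and ileum libraries did not overlap.

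The ratio of miR-215 to miR-192-5p within a library does not depend on scaling, and it separated the jejunum from the ileum. On the log2 scale, with 0.5 added to each count, the jejunum had 0.79, 1.07 and 1.32 (lowest, median and highest) and the ileum -0.42, -0.09 and 0.32, without overlap. The difference in means was 1.15 (permutation test, 100000 resamples, two-sided, p = 2e-05, the smallest these can give, adjusted p = 3.6e-05 over 36 pairs of 9 tissues). In linear terms the median ratio was 2.10 in the jejunum and 0.941 in the ileum. RNA integrity numbers were lower in the jejunum than in the ileum sample of several rats, and their part was not tested. The 6 remaining duodenum libraries had 0.69, 0.97 and 1.22, which overlapped the jejunum (difference -0.12, exact permutation test, adjusted p = 0.33) and not the ileum (1.03, exact permutation test, adjusted p = 0.00033). With all 10 libraries labelled duodenum the mean ratio was -1.59, and its difference from the ileum was -1.51 (adjusted p = 0.22).

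In the liver and the kidney miR-192-5p exceeded miR-215 by orders of magnitude in every library. The log2 ratio was -14.88, -11.29 and -9.26 in the liver, -13.56, -11.13 and -9.89 in the whole kidney, and -12.49, -10.88 and -10.06 in the kidney cortex. The medulla had -12.02, -9.43 and -8.07. Glandular stomach libraries ranged from -10.61 to -1.03 (median -8.27), with -7.06 as the highest besides rat 3, and non-glandular ones from -6.77 to -0.03 (median -4.39). In other tissues the gap was smaller: without the 10 libraries the median linear ratio was 0.215 in the testis, 0.166 in the adrenal, 0.115 in the uterus and 0.112 in whole blood. There miR-192-5p was low as well. On the other flow cells the adrenal and kidney cortex medians were 43.0 and 42.9 CPM for miR-215, but 300 and 66060 CPM for miR-192-5p. The testis libraries were shallow, with 2426945 counts together. Soleus rat 9 (1.35) and uterus rat 9 (1.04) had more miR-215 than miR-192-5p. Of the 36 pairs, 31 were called with all libraries and 32 without the 10. The liver did not separate from the whole kidney (0.26, adjusted p = 0.72 without the 10) or from the cortex (-0.08, adjusted p = 0.90). On the other flow cells the ratio was higher in 10 of 10 jejunum libraries and in 10 of 10 ileum libraries, by medians of 0.06 and 0.06, so the order of the medians, jejunum over ileum, held on both. Where miR-215 was low the shift was larger. The median log2 ratio was -13.43 on the first flow cell and -11.14 on the others in the liver, and the paired shift had a median of 1.91 there (higher in 6 of 10 libraries), 1.79 in the kidney cortex (8 of 10) and 1.35 in the non-glandular stomach (7 of 10).

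**Figure D2:**
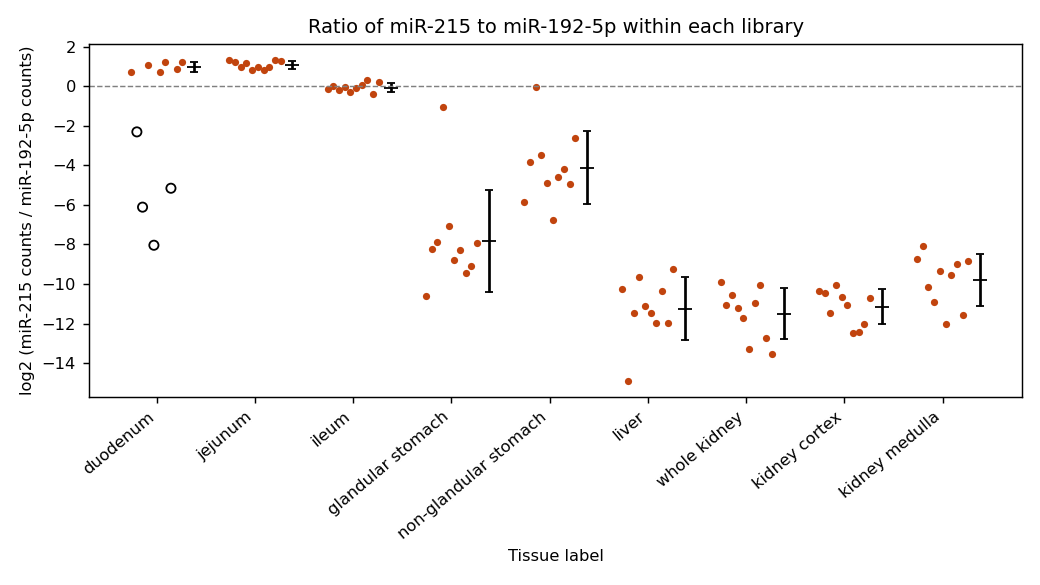
Log2 ratio of miR-215 to miR-192-5p counts in each library of 9 tissue labels, where 0 (dashed line) is equal counts. Points are libraries, bars are mean ± SD without the 10 libraries closest to another organ, and open circles are the 4 of those that are labelled duodenum. Jejunum and duodenum libraries sit near 1, ileum libraries near 0, and liver and kidney libraries at or below -8.07.

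miR-194-5p held a narrower ratio to its cluster partners. The log2 ratio of miR-194-5p to the sum of miR-192-5p and miR-215 had means of -5.05 in the jejunum, -5.11 in the ileum, -4.73 in the duodenum (n = 6), -4.83 in the kidney cortex, -4.56 in the medulla and -4.47 in the liver, with SDs of 0.14 to 0.23. Jejunum minus liver was -0.57 (permutation test, adjusted p = 0.00016 without the 10) and liver minus cortex 0.35 (adjusted p = 0.0049). The highest tissue was the cerebellum, whose 10 libraries (-3.01, -2.81 and -2.56) lay above every library of these 6 tissues. Of 36 pairs of the 9 tissues in the miR-194-5p to miR-192-5p plus miR-215 ratio, 22 were called with all libraries and 26 without the 10. With rats as blocks (exact sign flips, all libraries) 19 were.

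**Figure D3:**
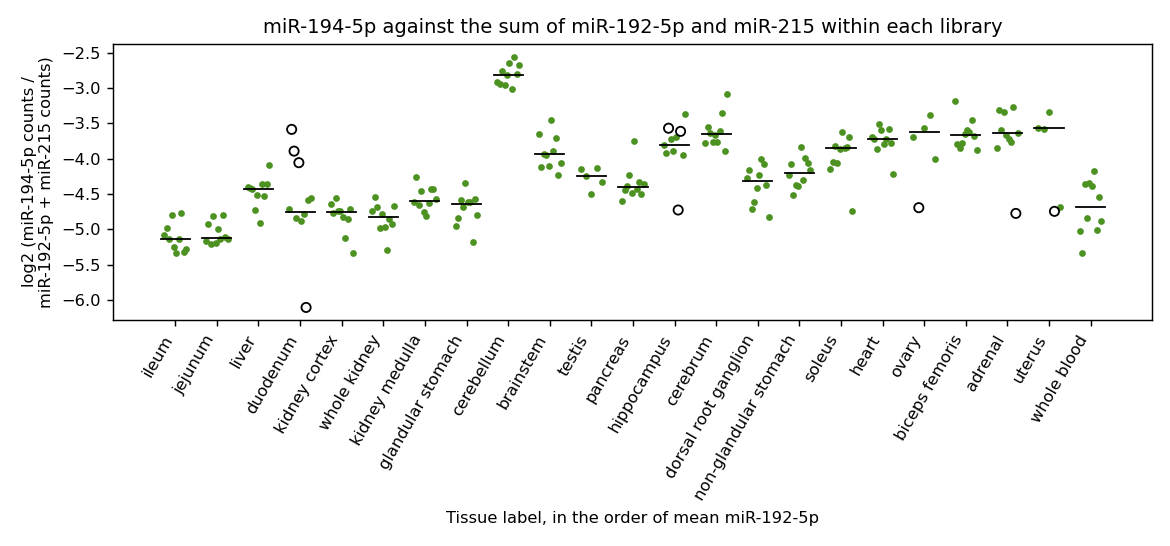
Log2 ratio of miR-194-5p to the sum of miR-192-5p and miR-215 counts in each library of 23 tissue labels. Lines are medians without the 10 libraries closest to another organ, and open circles are those 10. Cerebellum libraries lie between -3.01 and -2.56, and jejunum libraries between -5.21 and -4.80.

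Differences between the sexes were tested within each of the 19 tissues taken from all rats. With all libraries 7 of 57 tests were called (1.49% of all names and tissues): the 3 arms in the adrenal, the 3 arms in the hippocampus, and miR-215 in the glandular stomach. Without the 10 libraries, which include the female adrenal library of rat 8 and the male hippocampus library of rat 6, miR-192-5p differed by 0.03 ± 0.29 in the adrenal and 0.36 ± 0.33 in the hippocampus (female minus male). In that setting 3 of the 57 tests were called (0.872%). In the kidney medulla miR-192-5p was lower in females, with a difference of -0.99 ± 0.27 (edgeR adjusted p = 0.047). With all libraries the difference was -1.05 ± 0.79 (adjusted p = 0.88). The 5 males had 48990, 35245, 20953, 27026 and 31789 CPM and the 5 females 8360, 14831, 17849, 12442 and 5087 CPM. Every male library lay above every female library, as it did for 3.66% of all names in the medulla.

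miR-194-5p did the same in the medulla, with 1941, 1606, 776, 959 and 1284 CPM in males and 388, 687, 753, 507 and 266 CPM in females, but its test missed the threshold (-0.84 ± 0.26, adjusted p = 0.073). With glandular stomach rat 3 out of the fit as well, its adjusted p was 0.046 (-0.85 ± 0.25). Of the 60 names with every male above every female medulla library, 53 (88.3%) had a higher median CPM in kidney cortex than in medulla, compared with 45.9% of the 1641 names tested. The part of cortex tissue in the medulla samples was not tested. In the cortex itself the sexes overlapped in both arms, and miR-192-5p differed by -0.20 ± 0.27 (adjusted p = 0.97).

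In the glandular stomach miR-215 differed by -6.84 ± 1.17 between females and males (adjusted p = 5.9e-06). Males had 36.7, 12303, 80.6, 24.5 and 70.1 CPM and females 13.8, 27.3, 36.3, 8.70 and 30.4 CPM, so the value rests on rat 3 and was -1.05 ± 0.87 (adjusted p = 0.66) without that library. The same library had the highest miR-194-5p (1460 CPM against 361 to 911 in the other males and 268 to 619 in females). With rat 3 left out, the sex difference of miR-194-5p there moved from -0.96 ± 0.26 (adjusted p = 0.027) to -0.44 ± 0.26 (adjusted p = 0.53). Its summed epithelium markers (4850 CPM) lay within the range of the other stomach libraries, and its hepatocyte marker miR-122-5p was at 66.5 CPM (at most 3.83 in the others). Its exocrine pancreas markers were at 0.451 CPM, where the glandular stomach median was 0.596 CPM and another library reached 301 CPM. Over all 19 tissues, the test that the sex difference varies by tissue gave F = 4.85, 4.84 and 4.495 for the 3 arms with all libraries (13.5% of names called), and 1.62 (adjusted p = 0.22), 2.42 (0.022) and 3.22 (0.0013) without the 10 (13.3%). Without rat 3 of the glandular stomach as well, F was 1.61 (adjusted p = 0.22), 2.17 (0.049) and 1.68 (0.19).

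The isomiR table shows which ends each arm had. The most counted sequences are printed because the tissues differed in them, in DNA letters as in the table, with bases 2 to 8 of each sequence in capitals.
miR-192-5p: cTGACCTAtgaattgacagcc
miR-192-5p with 1 more A: cTGACCTAtgaattgacagcca
miR-192-5p with 1 more T: cTGACCTAtgaattgacagcct
miR-194-5p: tGTAACAGcaactccatgtgga
miR-194-5p with 1 more T: tGTAACAGcaactccatgtggat
miR-194-5p with 1 more A: tGTAACAGcaactccatgtggaa
miR-194-5p with 1 more C: tGTAACAGcaactccatgtggac
miR-215: aTGACCTAtgatttgacagaca
miR-215 with 1 base less: aTGACCTAtgatttgacagac
The first sequence of each arm equalled the RefSeq mature sequence and held 64.4% of miR-192-5p, 64.3% of miR-194-5p and 87.8% of miR-215 counts. The A of the longer miR-192-5p is in the precursor (7.80% of counts), whereas its added T (4.98%) is not. Of the longer miR-194-5p forms, the A (5.15%) is templated by mir-194-2 alone, the C (1.38%) by mir-194-1 alone, and the T (16.7%) by neither. The shorter miR-215 held 6.00%. A further miR-215 form with 1 extra 5′ base made up 1.27%, and 99.95% of its counts came from the 14 libraries with such a base.

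The share of the most common sequence differed by tissue, and liver and jejunum stood in the opposite order in miR-192-5p and miR-194-5p. For miR-192-5p, without the 10 and the 14 libraries, it was 52.3% ± 2.37 (SD, n = 10) in the liver, 65.6% ± 2.49 in the jejunum and 69.3% ± 2.22 in the kidney cortex. For miR-194-5p it was 72.7% ± 3.80 in the liver, 57.6% ± 4.12 in the jejunum and 75.6% ± 3.92 in the cortex. The liver ranges overlapped neither other tissue for miR-192-5p and did not overlap the jejunum for miR-194-5p (adjusted p = 9.7e-05 each, permutation test, the smallest p adjusted over 54 tests). For miR-215 the share was 87.7% ± 2.92 in the 9 liver libraries with at least 100 counts. Of the 54 tests of 3 measures, 3 arms and 6 tissue pairs, 12 were called with all libraries and 20 without both groups of libraries.

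Lengths moved with these shares. The mean length of miR-192-5p counts was 21.6 bases ± 0.0552 (SD, n = 10) in the liver, 21.3 ± 0.0303 in the jejunum and 21.2 ± 0.0271 in the kidney cortex, with no overlap (adjusted p = 9.7e-05). For miR-194-5p the order of liver and jejunum was the opposite, 22.04 ± 0.0249 and 22.35 ± 0.0655 (adjusted p = 9.7e-05). Changes at the 5′ end move the seed. The share of miR-192-5p that started 1 base later was 12.3% ± 1.23 in the liver and 6.83% ± 0.771 in the jejunum. It was highest in biceps femoris muscle (13.2% ± 1.27, n = 9) and lowest in the cerebrum (4.93% ± 0.475, n = 9). The share with the main 5′ end was 86.9% ± 1.4 in the liver and 92.2% ± 1.42 in the jejunum (difference -5.35, adjusted p = 9.7e-05).

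The share of counts with untemplated 3′ T differed between tissues. Enzymes known as terminal uridylyltransferases add such bases to small RNAs. Counted were sequences with the main 5′ end that followed the precursor and then ended in 1 to 3 T which the precursor does not give, a measure added after the sequences were seen. Of miR-192-5p counts they were 17.4% ± 0.889 (SD, n = 10) in the liver, 9.95% ± 0.772 in the jejunum, 6.93% ± 0.745 in the ileum (n = 9), 7.78% ± 0.669 in the duodenum (n = 5), 6.60% ± 0.623 in the glandular stomach (n = 9) and 4.27% ± 0.431 in the kidney cortex, without the 10 and the 14 libraries. The liver lay above the jejunum, and the jejunum above the ileum, in every library.

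For miR-194-5p the intestine was highest instead. The share was 28.7% ± 3.80 in the jejunum and 27.7% ± 2.53 in the duodenum (n = 5), 16.5% ± 1.52 in the ileum (n = 9), 8.02% ± 0.967 in the liver and 1.62% ± 0.246 in the kidney cortex. Jejunum and ileum did not overlap for either arm (exact permutation test, adjusted p = 4.9e-05), and jejunum and liver did not either. Duodenum minus jejunum was -0.91 percentage points in miR-194-5p (exact permutation test, adjusted p = 0.67) and -2.17 in miR-192-5p (exact permutation test, adjusted p = 0.0011). With all libraries these were -10.8 (exact permutation test, adjusted p = 0.034) and -3.65 (permutation test, adjusted p = 4e-05). miR-215 had 1.01% ± 0.108 in the jejunum and 0.732% ± 0.0741 in the ileum (exact permutation test, adjusted p = 8.7e-05). In the glandular stomach, miR-194-5p of rat 3 had 15.5% with such a T and the other 9 libraries 1.60% to 5.97%. Without the 14 libraries the lowest value there was 3.26%. With all libraries 11 of 18 tests were called, and 11 without the 10 and the 14.

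**Figure D4:**
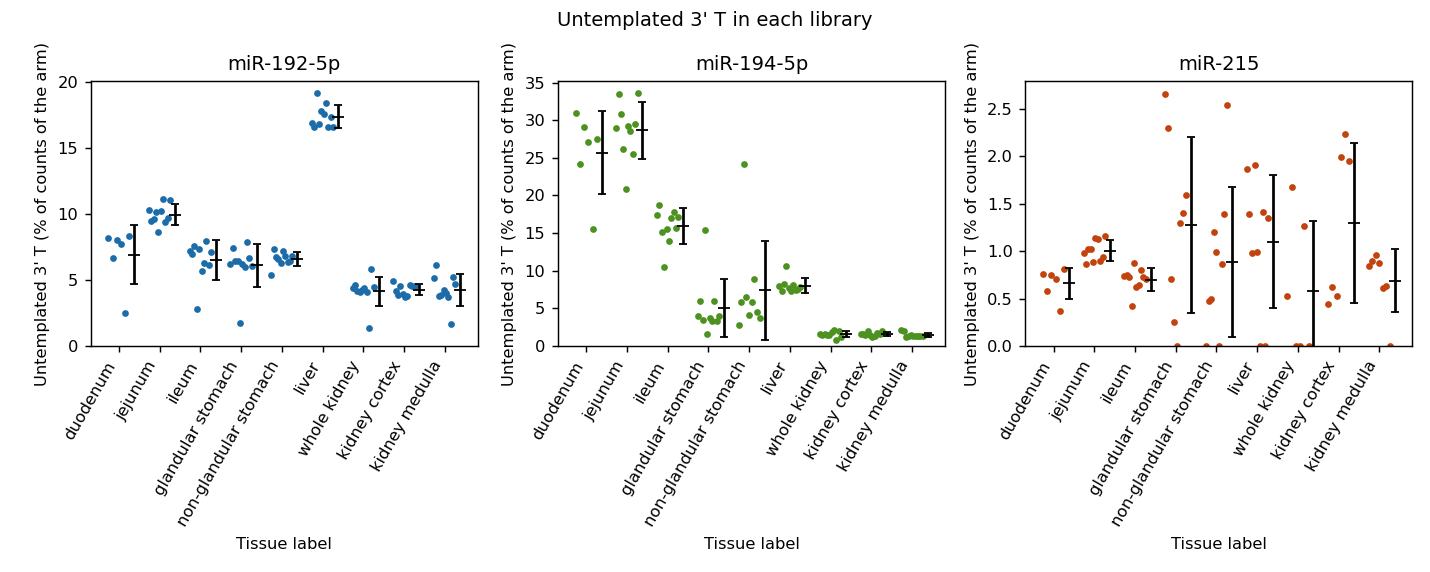
Share of the counts of miR-192-5p, miR-194-5p and miR-215 that end in 1 to 3 T not given by the precursor, in libraries of 9 tissue labels with at least 100 counts of the arm. Points are libraries without the 10 closest to another organ, and bars are mean ± SD of those points. miR-192-5p is highest in liver (16.5% to 19.2%), miR-194-5p in jejunum and duodenum, and miR-215 reaches at most 2.65%.

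Some longer miR-194-5p sequences matched the bases of only one of its loci. An untemplated base equal to the next base of a hairpin would look the same, so such ends do not prove the locus. Ends given by mir-194-1 alone made up 4.28% of miR-194-5p counts in the duodenum (median, n = 6), 3.35% in the jejunum and 1.26% in the ileum, against 0.112% in the liver, 0.122% in the kidney cortex and 0.177% in the glandular stomach. Lowest jejunum and highest liver values were 1.89% and 1.69%, so the ranges did not overlap. Ends given by mir-194-2 alone went the other way, with medians of 7.22% in the liver, 7.01% in the cortex and 4.01% in the jejunum. Most miR-194-5p counts end where the 2 hairpins are identical, and these shares are not shares of expression.

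The opposite (3p) arms differ in sequence between the hairpins. The 3p arms of mir-194-1 and mir-215 were counted under names that carry -pre and are no members, apart from miR-194-1-3p, also no member, with 2 counts. The -pre entries are given as readouts of the chromosome 13 cluster. The 3p entry of mir-194-1 had a median of 71.5 CPM in the duodenum (n = 6), 68.0 CPM in the jejunum and 30.2 CPM in the ileum. It had 0 counts in the 10 liver libraries together, which allows up to 0.0737 CPM (3 counts of their total), so the jejunum was at least 946-fold higher. Kidney cortex libraries together had 5 counts. The glandular stomach had 82 counts, all from rat 3. The 3p entry of mir-215 had medians of 1877 CPM in the jejunum, 1746 CPM in the duodenum and 981 CPM in the ileum, and 0.603 CPM in the liver (22 counts). The limit from 0 counts covers counting error only.

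On chromosome 1 the 3p arms were spread over liver, intestine and kidney. miR-194-3p had medians of 31.3 CPM in the liver, 27.3 CPM in the duodenum, 23.6 CPM in the jejunum, 20.8 CPM in the ileum and 11.1 CPM in the kidney cortex. miR-192-3p had 56.0, 36.7, 32.7, 35.2 and 23.1 CPM in the same order. Both were lower in the glandular stomach (2.99 and 4.38 CPM) and lowest of these in the non-glandular stomach (0 and 0.223 CPM). Over the 23 tissue means, log2(CPM + 1) of miR-215 correlated with r = 0.95 with the 3p entry of mir-194-1 and r = 0.99 with that of mir-215, and with r = 0.62 with miR-192-5p (without the 10 libraries, as a description).

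**Figure D5:**
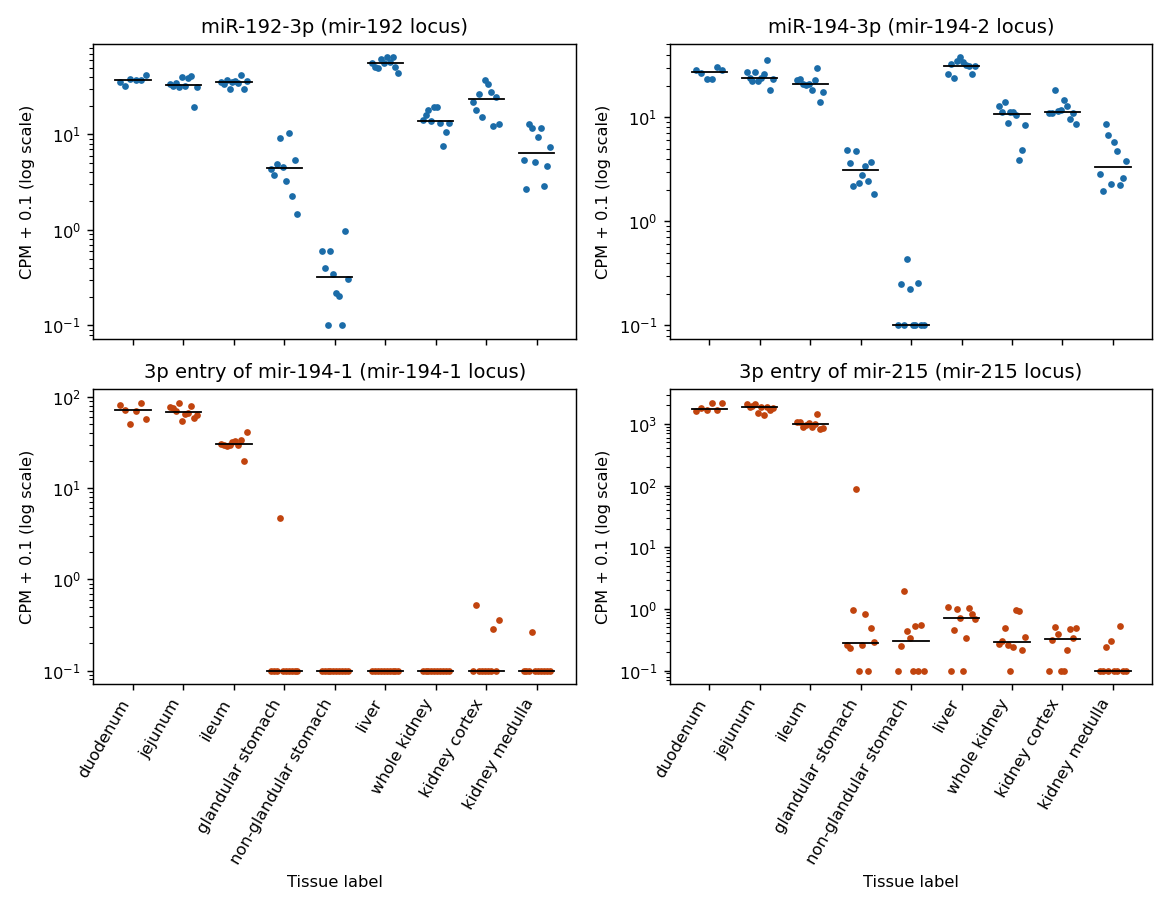
CPM plus 0.1 (log scale) of the 3p arms of the 4 hairpins in 9 tissue labels, without the 10 libraries closest to another organ. Points are libraries and lines are medians. The chromosome 1 arms (top) are found in liver, intestine and kidney, while the chromosome 13 arms (bottom) are high in duodenum, jejunum and ileum and raised in 1 glandular stomach library.

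The remaining members were rare. The shared name miR-192-5p;miR-215, for reads that fit both, had 12933 counts in 125 libraries and a median of 93.8 CPM in the jejunum and 85.1 CPM in the ileum. miR-215-5p, a name taken from human miR-215, had 9975 counts in 109 libraries and medians of 78.5 CPM in the jejunum and 49.7 CPM in the duodenum. miR-192-3p (9249 counts) and miR-194-3p (5883 counts) were found in 171 and 162 libraries. The composite chr17_42164-3p;miR-192-5p had 23 counts and the last 2 names 1 count each. In all, 8 of the 10 names had at least 10 counts.

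Names whose tissue pattern was most like each arm were ranked by Pearson's r of log2(mean CPM + 1) over 23 tissues among 1631 names. Without the 10 libraries, miR-192-5p was closest to miR-802-5p (r = 0.78), miR-802-3p (0.78) and miR-203a-5p (0.74), and miR-194-5p to the same names with r = 0.78, 0.78 and 0.74. miR-802 was highest in the liver. With all libraries the nearest were miR-200b-3p (0.81), miR-429 (0.79) and miR-21-3p (0.79) for miR-192-5p. miR-215, without the 10 libraries, was closest to the entries chr3_10635-5p;mir-147-pre (0.92), miR-147 (0.85) and chr7_22022-5p (0.83). The highest tissue mean of chr3_10635-5p;mir-147-pre was 1.39 CPM, in the duodenum, and that of miR-147 was 98.0 CPM, in the ileum. For chr7_22022-5p it was 0.531 CPM, in the testis. The r values of all these names compare with r = 0.99 between miR-192-5p and miR-194-5p.

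Other epithelial miRNAs were counted for comparison. Of 12 listed names (the miR-200 family, miR-375, miR-203a-3p, miR-205, the miR-183 cluster and miR-31a-5p), all 12 were called higher than the mean of other tissues in duodenum, jejunum, ileum, glandular stomach and kidney medulla. In the whole kidney 11 were called higher, with all libraries and without the 10. The kidney cortex had 9 higher and 1 lower with all libraries, and 10 and 1 without the 10. The non-glandular stomach had 11 higher with all libraries and 12 without the 10. In the liver 3 were called higher and 1 lower with all libraries, and 9 and 1 without the 10, with a list median of 1.09 (0.21 over all names) compared with 5.98 for miR-192-5p. Of all names, 27.4% were called higher in the jejunum and 30.8% in the liver with all libraries, and 29.2% and 33.7% without the 10. Over all names and the 23 tissues, 23.4% of tests were called higher with all libraries and 24.4% without the 10.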

How the data were processed

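Small RNA was read on an Illumina instrument from barcoded libraries, and the authors trimmed adapters (cutadapt 1.4.1 per the submitters' processing notes), dropped reads shorter than 17 bases and assigned the rest to known and predicted miRNAs with a miRDeep2-based procedure in which reads shared between names carry a joint name. The deposited tables hold raw read counts per name and per isomiR sequence. Of 458 sequencing runs, 14 that repeat a flow cell lane of another run were set aside, and the others were summed to 1 library per rat and tissue. CPM is per 1000000 counts of all names. A log2 ratio has 0.5 added to each count.

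Tissues and sexes were compared with edgeR 4.0.16 in R 4.3.3 (quasi-likelihood test, upper-quartile scaling, filterByExpr, Benjamini-Hochberg adjustment, threshold 0.05). The 10 dorsal root ganglion libraries were summed into 2 pools. Ratios and isomiR shares were compared with two-sided permutation tests in scipy 1.17.1 (100000 resamples, exact where a group had under 10 values). The isomiR tests used libraries with at least 100 counts of the arm, and the ratio tests had no count minimum. These steps were tested on simulated data. Hairpins and mature sequences were taken from RefSeq (GRCr8).

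Alternatives were DESeq2 1.42.0, TMM scaling, no filter on low counts, other runs or flow cells, joint names added to members, another pseudocount or count minimum, re-extraction as a covariate, rats as blocks, each rat left out, and libraries closest to another organ left out. Members, lists and tests were chosen with earlier results of these data known. Leaving out all 10 libraries closest to another organ, the 14 with an extra 5′ base or glandular stomach rat 3, and the count of untemplated T, were chosen after the data were seen. Besides the members, named miRNAs were the 3 most like each arm by correlation over tissues, and the fixed marker and epithelial lists. Rats were shared among tissues. RNA integrity was no covariate in any comparison, and its part in differences between tissues, including isomiR ends, was not tested. Over all names, deviations from tissue means correlated with a median of 0.0096 between samples of the same rat and -0.0076 between samples of different rats. SEs are from the edgeR fits, SDs are among libraries, and the limit set where no counts were found covers counting error only.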

Additional observations from a re-analysis of the deposited data

Results flagged for a closer look

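Of 84 groups of 4 to 10 libraries checked, 28 held a library far from the rest of its group. The cut-offs are meant to flag about 1 in 20 groups of independent, normally distributed values. The arms share libraries and CPM need not be normal, so this rate is no test of the 28.

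Most of the largest gaps came from libraries that were closest to another organ over names that are no member. In adrenal rat 8 miR-192-5p was 134850 CPM, miR-194-5p 12602 CPM and miR-215 210076 CPM, and the next adrenal libraries had 394, 43.2 and 67.3 CPM. Hippocampus rat 6 had 120653, 13351 and 232750 CPM, ovary rat 11 had 134155, 15658 and 270908 CPM, and uterus rat 8 had 133699, 14954 and 267430 CPM. In these 4 libraries the 3 arms stood together at intestinal levels. Duodenum rat 7 had the lowest ratio of miR-194-5p to its partners in its group, -6.10 (log2), and the next was -4.88.

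Glandular stomach rat 3 had 12303 CPM of miR-215, against 80.6 CPM in the next library, and a miR-215 to miR-192-5p ratio of -1.03, against -7.06. Its profile was closest to its own label.

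Other single libraries were high in miR-215: brainstem rat 8 with 1218 CPM, cerebellum rat 4 with 236 CPM, heart rat 9 with 193 CPM, non-glandular stomach rat 2 with 265 CPM, soleus rat 9 with 1481 CPM and testis rat 4 with 2038 CPM. Soleus rat 9 was also high in miR-192-5p (1099 CPM) and miR-194-5p (96.4 CPM), and testis rat 4 in miR-194-5p (194.3 CPM), as was pancreas rat 5 (115 CPM). The lowest miR-192-5p of the cerebellum (2303 CPM) and of the cerebrum (612 CPM) were both in rat 9. Liver rat 11 had the lowest miR-215 to miR-192-5p ratio of its group, -14.88, and the next was -11.97.

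The sex difference varied among the 19 tissues for all 3 arms with all libraries, with F = 4.85 for miR-192-5p, 4.84 for miR-194-5p (edgeR adjusted p = 2.0e-06 for both) and 4.495 for miR-215 (8.5e-06). For miR-192-5p this was not called without the 10 libraries closest to another organ.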

How the results depend on the processing

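Of the 24 tests of tissue pairs on the 3 arms, 6 were called as reported, 10 by DESeq2, 14 when no low-count filter was used, 12 without the 9 libraries with the largest gaps, 14 without the 10 closest to another organ, 14 without glandular stomach rat 3 as well, and 5 to 9 with each rat left out. Of the sex tests 7 were called as reported, 11 with no filter, 3 without the libraries apart, 2 without glandular stomach rat 3 as well, and 4 to 7 with each rat left out, the 4 being without rat 6 or without rat 8. The sex difference varied among tissues for 3 arms, and for 1 without the 10 and glandular stomach rat 3. For these counts, shares of all names are given above only with all libraries and without the 10, so the other settings have no background. Of the 54 isomiR tests 12 were called as reported, 20 of the 42 that could be made on the first flow cell alone, 20 of 54 without the libraries with an extra 5′ base, 20 without both kinds, and 10 to 16 with each rat left out.

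Some directions turned. miR-215 of the glandular stomach against the other tissues was -3.24 to 2.93 with each rat left out (-3.24 without rat 3) and -1.44 without the 10 libraries and that one. The sex difference of miR-215 in the adrenal was -0.52 without the 10, -0.52 without glandular stomach rat 3 as well and -0.49 to 10.21 with each rat left out (-0.49 without rat 8). In the hippocampus it was 0.36 for miR-192-5p, 0.36 for miR-194-5p and 1.13 for miR-215 without the 10, 0.35, 0.36 and 1.12 without glandular stomach rat 3 as well, and, with each rat left out, -6.46 to 0.17, -6.99 to 0.15 and -11.97 to 1.24, the highest without rat 6. The miR-215 to miR-192-5p ratio of duodenum minus ileum was 1.03 without the libraries apart. For glandular stomach minus jejunum, the mean length of miR-192-5p was -0.0472 on the first flow cell, -0.0441 without the extra-base libraries (with or without the libraries apart) and -0.0499 to 0.0337 with each rat left out (lowest without rat 4), and the share of its main sequence was 3.78, 3.98 and -2.25 to 4.19. For jejunum minus ileum that share was -3.74 on the first flow cell, -4.54 without the extra-base libraries and -4.24 to 1.51 with each rat left out (lowest without rat 3). The share of the main miR-215 sequence, duodenum minus jejunum, was 1.43 on the first flow cell. Where libraries were left out the change follows from them, and the cause was not tested elsewhere.

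With the rat as a block, which pairs tissues of the same animal, 7 tissue pairs, 31 pairs for the miR-215 ratio, 19 for the miR-194-5p ratio, 11 isomiR tests and 11 tests of untemplated T were called. The edgeR fits with this block also left out the dorsal root ganglion, and of 22 tissue tests each 19, 16 and 16 were called for miR-192-5p, miR-194-5p and miR-215. The share of all names called with this block is not given, so these counts have no background beside them. Levels under 100 counts, as for miR-215 in single liver and kidney libraries, limit isomiR shares there.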
